A study of Mus musculus with 19 samples.

Results

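High endothelial cells (HEC) of peripheral lymph nodes were set against capillary endothelial cells of the same kind of node, with 4 HEC arrays and 3 capillary arrays out of 19 in the series. The arrays were chosen by their titles alone, and the difference is the mean of HEC minus the mean of capillary arrays on the log2 scale for each of 19938 genes. Both groups were sorted from wild-type Balb/c mice, an inbred strain, 6 to 8 weeks old, which were untreated as far as the labels say, and each sample is described as an equal mix of males and females. The other 12 arrays cover HEC and capillary cells of mesenteric lymph nodes, which drain the gut, and of Peyer's patches, which are lymphoid tissue within the small intestine, and they entered here only through the shared estimate of spread and 1 comparison of tissues. The labels give the gates of mesenteric HEC (MAdCAM1+/PNAd+ or MAdCAM1+) but not those of the peripheral sorts, so it cannot be told whether a gene restates a sorting antigen there. Nothing in them ties replicates to separate animals or sorts, and p-values therefore reflect no more than the scatter among these samples, which may be technical.

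High endothelium lines the venules through which blood lymphocytes enter a lymph node. Its cells build PNAd, a family of mucin-like glycoproteins whose sugar chains carry sulfated sialyl Lewis x, and L-selectin on a lymphocyte binds that sugar and tethers the cell. Chemokines shown on the vessel wall and adhesion molecules then stop the lymphocyte and let it pass. Capillaries of the node exchange gases and nutrients and hardly recruit lymphocytes.

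Signals were log2 values that had been centred for each gene on a baseline the sources used here do not state. A value therefore ranks the arrays for 1 gene, and neither the level of a gene nor its detection above background can be read. With bulk RNA of sorted cells, more cells of a type and more RNA per cell cannot be told apart.

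The labelled cell types were looked at first, with markers chosen while earlier results of these data were known. Their counts are therefore no independent check of the labels. Of the 7 HEC markers measured (Glycam1, Chst4, Fut7, Ackr1, Sele, Madcam1 and Nr2f2) 7 were higher in HEC, and of the 8 capillary markers (Cd36, Gpihbp1, Car4, Aqp7, Efnb2, Gja4, Dll4 and Cxcl12) 8 were lower, with no overlap between the groups for any of the 15. Over all 19938 genes, 2385 passed the test given below as higher in HEC with no overlap, and 2161 as lower. Lack of overlap alone was therefore common in this comparison. At least Efnb2 and Dll4 are also among the arterial and Notch genes described below, so they do not tell capillary from arterial cells. Glycam1 did not pass in every setting that was run, as given below. A broader check used 76 genes that were at least 4-fold higher in HEC of both other tissues. Relative to the mean of the 7 peripheral arrays, the median of these genes was 1.17, 1.04, 1.15 and 1.13 log2 in HEC arrays 1 to 4, against -1.37, -1.42 and -1.71 in capillary arrays 1 to 3. All 76 were higher in peripheral HEC. Capillary arrays 1 and 2 lay above array 3 by a median of 0.42 and 0.31 log2, and 62 of the 76 genes were higher in both of them than in array 3. For 81 genes that marked capillary cells of the other tissues the same medians were -0.03 and -0.02, and 79 of the 81 were lower in peripheral HEC.

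**Figure D1:**
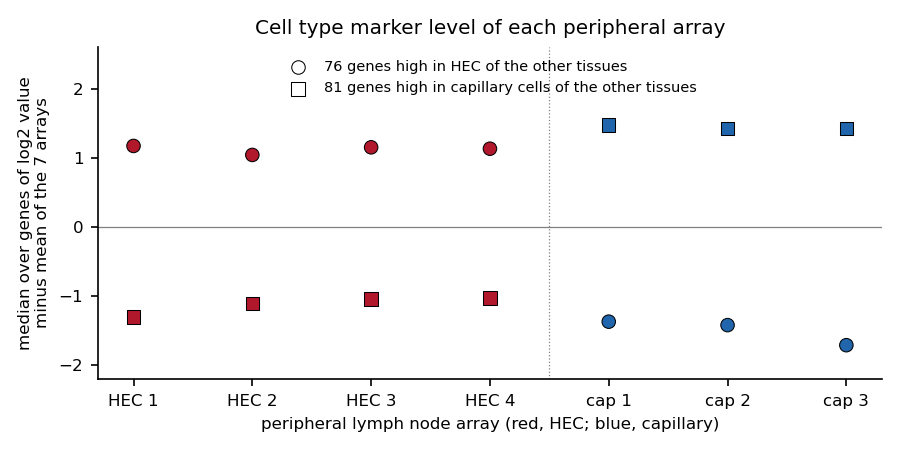
Median log2 level of 2 marker sets (vertical axis, relative to the mean of the 7 arrays) in each peripheral lymph node array (horizontal axis; red, HEC; blue, capillary), with circles for 76 genes high in HEC of the other tissues and squares for 81 genes high in their capillary cells. The HEC arrays lie at 1.04 to 1.17 for the first set, and capillary arrays 1 and 2 (-1.37 and -1.42) lie above array 3 (-1.71).

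Array 1 of each group also stood apart, in genes of the Y chromosome. Uty was at -1.61, 0.03, 0.00 and 0.11 in HEC arrays 1 to 4, against -1.65, -0.03 and -0.39 in capillary arrays 1 to 3. Eif2s3y was at -1.99, -0.34, -0.25 and -0.13 in HEC, against -1.61, -0.07 and -0.45 in capillary cells, and array 1 of both groups was also lowest for Kdm5d (-1.03 and -0.87). These 3 genes were chosen after their values were seen. By these 3 genes, array 1 of each group lay below the other arrays, although the labels give each sample as an equal mix of sexes. Xist, which female cells express, was at 0.64, 0.32, 0.82 and 0.68 in HEC arrays 1 to 4. In capillary arrays 1 to 3 it was at 1.02, 0.03 and 0.19. For Xist, capillary array 1 thus stood highest, while HEC array 1 lay within its group. The 2 arrays numbered 1 stand on opposite sides of the comparison. None of the 3 Y genes differed between the groups by limma (adjusted p = 0.964 for Eif2s3y, 0.698 for Kdm5d and 0.569 for Uty). Among 140 genes that ranged over at least 1 log2 between HEC arrays, HEC array 1 stood alone in 12, always as the lowest, array 4 in 10, array 3 in 3 and array 2 in 0.

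By limma with Benjamini-Hochberg adjustment over all 19938 genes, 4897 genes differed between peripheral HEC and capillary cells at an adjusted p below 0.05, which is 24.6% of those tested. Of these, 2615 were higher in HEC (13.1%) and 2282 lower (11.4%). Differences of at least 2-fold were found in 535 genes that were higher (2.68%) and 427 that were lower (2.14%). The median difference over all genes was -0.05 log2. Below, a gene called higher or lower passed this test, the error after ± is the SE of the model, and counts of a gene list are to be read against these shares. Without capillary arrays 1 and 2, which leaves 1 capillary array that is assumed to vary like the other groups, 2655 genes passed (1637 higher and 1018 lower), and without array 1 of both groups 4549 passed (2515 higher and 2034 lower). Where a count of a list moved by more than 1.5 times in either setting, it is given beside the main one. Of 254 genes named here that passed, 54 did not pass without capillary arrays 1 and 2, and 22 did not pass without array 1 of both groups.

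The 15 highest and 15 lowest genes lay far apart between the groups. Chst4, the sulfotransferase that adds sulfate to N-acetylglucosamine of L-selectin ligands, was highest at 4.85 ± 0.34 log2, a 28.7-fold difference (adjusted p = 1.22e-08). Next came the thyrotropin receptor Tshr (4.52 ± 0.29), Oit1 (4.51 ± 0.23) and the serpin Serpina3n (4.49 ± 0.43). Others that stood higher in HEC were Itih3, a heavy chain of the inter-alpha-trypsin inhibitors (3.84 ± 0.12), the serpin Serpina1c (3.83 ± 0.22), whose near-identical copies its probe set may also bind, and the plexin-domain gene Plxdc2 (3.67 ± 0.15). The list went on with the potassium channel subunit Kcng3 (3.66 ± 0.19), the guidance receptor Robo2 (3.64 ± 0.16), Dennd2d (3.59 ± 0.21), clotting factor F8 (3.59 ± 0.27), the RNA-binding gene Rbm47 (3.57 ± 0.14), the claudin Cldn13 (3.56 ± 0.14) and the protocadherin Pcdh7 (3.55 ± 0.11). Tshr was even among HEC arrays, at 5.13, 4.67, 4.77 and 4.67, against 0.70, 0.38 and -0.19 in capillary arrays 1 to 3. Oit1 showed 5.26, 5.26, 5.23 and 5.02 in HEC, against 1.07, 1.13 and -0.16. In both genes, as in Chst4, the third capillary array was the lowest of all 7.

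Capillary cells held the other extreme. The fatty acid transporter Cd36 was lowest in HEC at -5.01 ± 0.30 log2, a 32.2-fold difference (adjusted p = 1.35e-09), with -1.03, 0.00, -0.20 and 0.18 in HEC arrays against 4.56, 4.84 and 4.84 in capillary arrays. The endothelin receptor Ednrb followed at -4.96 ± 0.13, with -0.49 to -0.36 in HEC against 4.50 to 4.60 in capillary cells. HEC array 1 was the lowest for Cd36, and for both genes the groups lay far apart. T-cadherin (Cdh13, -4.52 ± 0.16), the growth factor binding protein Igfbp3 (-4.44 ± 0.15), the butyrophilin-like Btnl9 (-4.39 ± 0.11), the membrane carbonic anhydrase Car4 (-4.38 ± 0.19) and the retinol-binding protein Rbp7 (-4.07 ± 0.32) came next. Clic5 (-3.98 ± 0.18), Rgcc (-3.81 ± 0.24) and the apelin receptor Aplnr (-3.78 ± 0.14) closed this group together with genes described below.

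**Figure D2:**
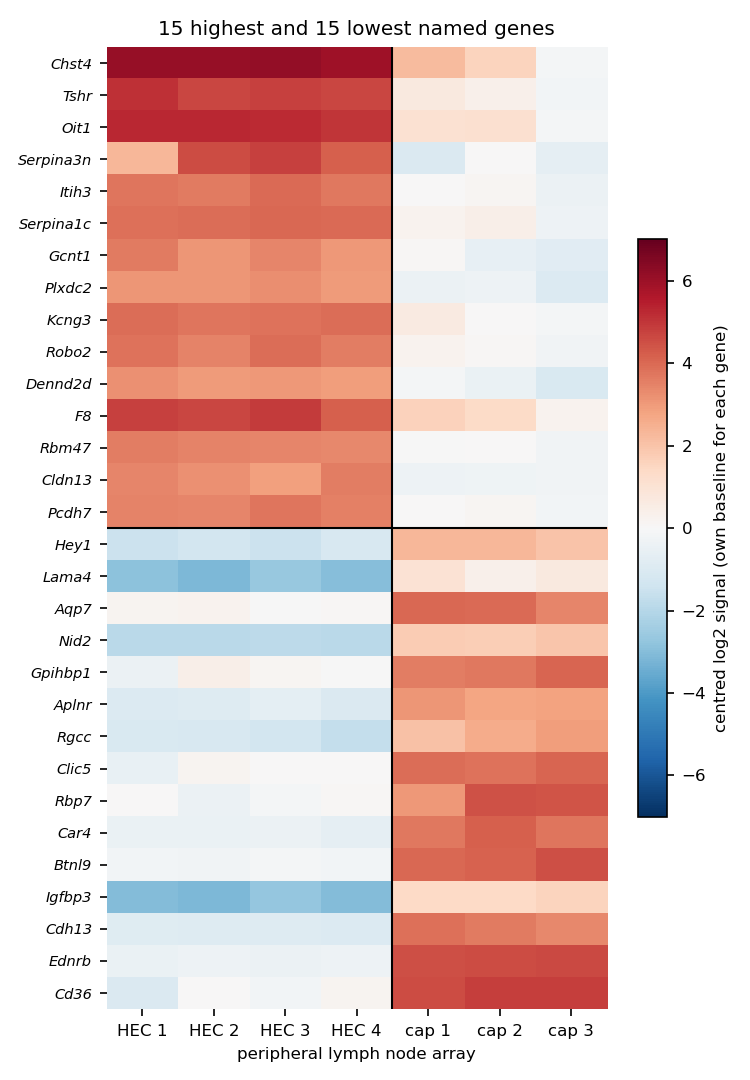
Centred log2 signal (colour; each gene has its own baseline) of the 15 highest and 15 lowest named genes, ordered from Chst4 at the top to Cd36 at the bottom, in 4 HEC arrays (left) and 3 capillary arrays (right) of peripheral nodes. HEC array 1 is paler for Serpina3n (2.30 against 4.18 to 4.79 in the other HEC arrays), and capillary arrays 1 and 2 are darker than array 3 for Chst4, Oit1 and F8.

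Enzymes that build the L-selectin ligand divided between a few very large differences and many small ones. Among the 15 such enzymes measured, 8 passed as higher in HEC (53.3%) and 1 as lower, the median was 0.47, and 5 were higher without capillary arrays 1 and 2. Chst4 was at 6.08, 6.08, 6.13 and 5.91 in HEC arrays, against 2.19, 1.57 and -0.15 in capillary arrays, so the capillary arrays were spread far more widely than the HEC arrays. Against capillary array 3 alone the Chst4 difference was 6.20 (adjusted p = 3.57e-11). Fut7, the fucosyltransferase that completes sialyl Lewis x, was at 3.58, 3.70, 3.73 and 3.71 in HEC, against 1.24, 0.91 and 0.35 (2.85 ± 0.17). Gcnt1, which starts the core 2 branch of the sugar chain, was at 3.62, 3.09, 3.44 and 3.06, against 0.10, -0.55 and -0.79 (3.72 ± 0.21). The groups did not overlap for these 3 genes. A second sulfotransferase of the same reaction, Chst2, was higher by 1.17 ± 0.13, and B3gnt3, which extends core 1 chains, by 0.69 ± 0.12. The sialyltransferases St3gal4 (0.59) and St3gal6 (0.54), which cap such chains, and the core 1 synthase C1galt1 (0.47) were higher by less. St3gal1, which caps core 1 and so competes with its branching, was lower (-0.84 ± 0.12), with -0.95 to -0.42 in HEC against 0.07 to 0.36 in capillary cells. St6gal1, a sialyltransferase of another linkage, did not pass (0.19 ± 0.13, adjusted p = 0.281).

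The supply of activated sugar and sulfate followed. Of 21 measured genes of donor synthesis and transport 11 were higher and 0 lower (median 0.54). Gmds, the first enzyme of the route to GDP-fucose, was at 1.87, 1.68, 1.85 and 1.72 in HEC arrays, against -0.15, -0.01 and -0.70 in capillary arrays (2.06 ± 0.15). Gfpt1, which commits glucose to the hexosamine route, was higher by 1.94 ± 0.15, the sialic acid synthase Nans by 1.44 ± 0.12 and the sulfate transporter Slc26a2 by 1.26 ± 0.18. All 4 separated the groups completely. Papss2, which makes the activated sulfate that Chst4 uses, was higher by 1.03, whereas its relative Papss1 was at -0.06 and did not pass.

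Protein carriers of the ligand did not move as 1 group, since 3 of 9 measured sialomucins were higher and 3 lower (median -0.22). Glycam1, a secreted mucin and the classical carrier in mouse lymph nodes, was at 4.99, 5.02, 5.07 and 4.60 in HEC arrays, against 4.42, 4.11 and 1.70 in capillary arrays. The difference of 1.51 ± 0.47 passed (adjusted p = 0.0258), but 2 of the 3 capillary arrays nearly reached the HEC values. It was 3.22 against capillary array 3 alone (adjusted p = 4.04e-05) and 0.66 without that array (adjusted p = 0.149). Madcam1, the mucosal addressin, was at 2.55, 1.73, 1.73 and 1.87 in HEC against -0.92, -0.62 and -1.34 (2.93 ± 0.21), and HEC array 1 was the highest. The mucin-like Parm1 was higher by 2.10 ± 0.13, with 1.62 to 1.82 in HEC against -0.71 to 0.00. Podocalyxin (Podxl), which carries PNAd sugars in HEC but is made by vessels in general, was lower by a wide margin at -0.60, -0.27, -0.32 and -0.17 in HEC, against 2.56, 2.54 and 2.51 (-2.88 ± 0.09). Endomucin (Emcn, -0.52 ± 0.10) and the nepmucin gene Cd300lg (-0.53 ± 0.16) were also lower, while the groups overlapped for Cd34 (-0.22 ± 0.13, adjusted p = 0.236) and it did not pass.

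Adhesion molecules showed the same division. Of 15 measured 4 were higher and 2 lower (median -0.03). Endothelial selectin (Sele) was at 3.07, 2.83, 3.57 and 2.91 in HEC arrays, against 1.26, 1.46 and 0.42 in capillary arrays (2.05 ± 0.26). Vcam1, which binds the alpha 4 integrins of lymphocytes, was at 1.06, 0.73, 1.59 and 0.99, against -0.40, -0.21 and -0.97 (1.62 ± 0.21). Nectin2 (0.72 ± 0.09) and Alcam (0.49 ± 0.09) were higher by less. Icam1, the ligand of LFA-1 in firm arrest, overlapped between groups and did not pass (0.31 ± 0.18, adjusted p = 0.232), and neither did Pecam1 (-0.07 ± 0.09, adjusted p = 0.599). Mcam (-1.05 ± 0.16) and Nectin3 (-0.93 ± 0.15) were lower. P-selectin (Selp) was not analysed here.

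**Figure D3:**
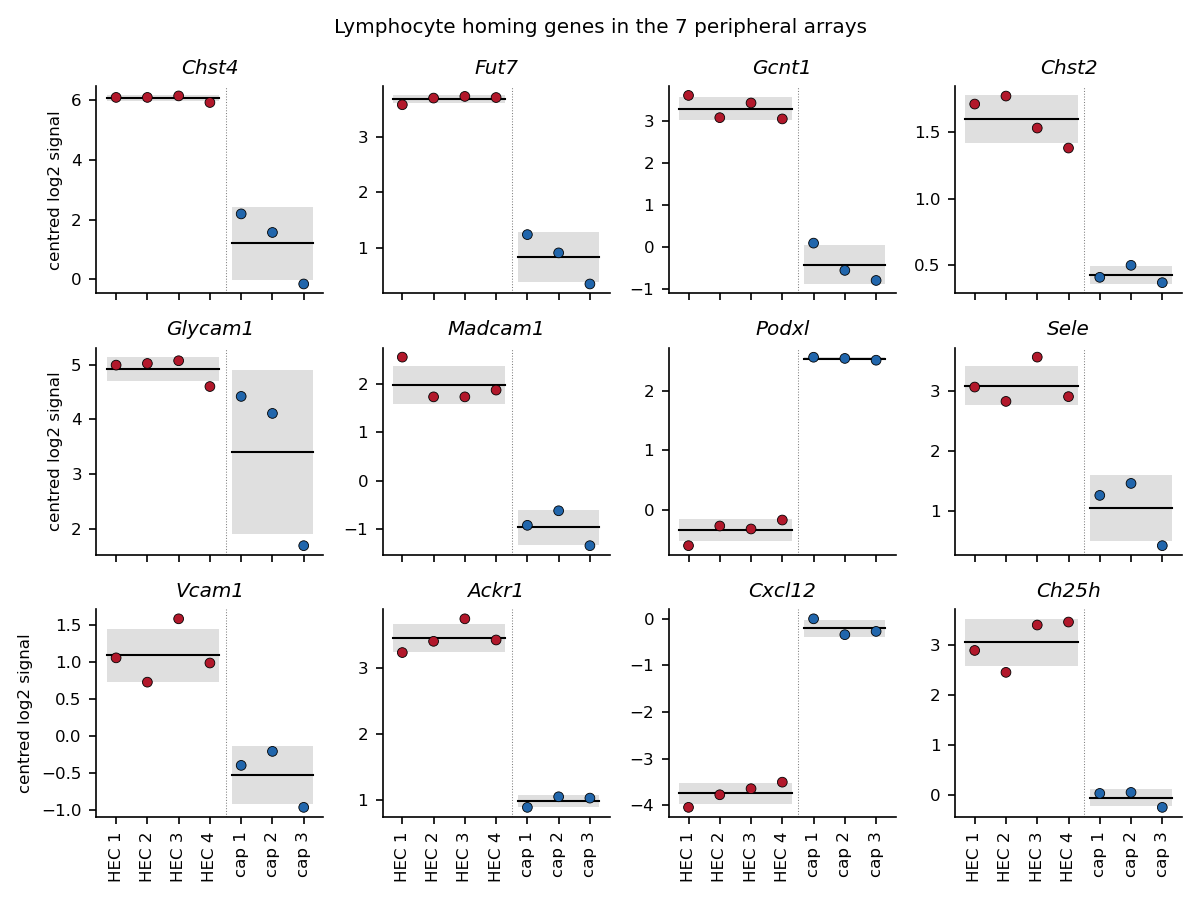
Centred log2 signal (vertical axes, 1 scale per gene) of 12 homing genes in peripheral HEC arrays 1 to 4 (red, left) and capillary arrays 1 to 3 (blue, right), with a line at each group mean and a band of ± 1 SD. Glycam1 in capillary arrays 1 and 2 (4.42 and 4.11) nearly reaches the HEC arrays (4.60 to 5.07), while Podxl and Cxcl12 lie lower in HEC.

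Of 19 measured chemokines 2 were higher (10.5%, against 13.1% of all genes), 4 lower (21.1%, against 11.4%) and 13 did not pass (median -0.14). The lower count was 2 both without capillary arrays 1 and 2, where 1 was higher, and without array 1 of both groups. The higher ones were Cxcl10 (1.07 ± 0.14) and Cxcl11 (0.98 ± 0.24), interferon-inducible ligands of CXCR3. Cxcl11 gave 1.35, 1.39, 1.38 and 1.60 in HEC against 0.59, 0.43 and 0.33. The largest differences lay in the other direction. Cxcl12, the ligand of CXCR4, was at -4.04, -3.77, -3.64 and -3.50 in HEC, against 0.00, -0.34 and -0.27 (-3.54 ± 0.13), and the membrane-bound fractalkine gene Cx3cl1 at -1.89 to -1.34, against 1.73 to 1.99 (-3.42 ± 0.16). Ccl19 was at -0.14 and Cxcl13 at -0.51, and neither passed. Ccl21 genes were not analysed here.

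Receptors that scavenge or present chemokines separated the cell types further. Of 8 measured 3 were higher and 3 lower, and 2 in each direction without capillary arrays 1 and 2. Ackr1, the atypical receptor that carries inflammatory chemokines across venules, was at 3.23, 3.40, 3.74 and 3.42 in HEC against 0.89, 1.05 and 1.03 (2.46 ± 0.18). Ackr2, which degrades CC chemokines, was at 3.11, 2.61, 3.03 and 3.04 against 0.57, 0.26 and 0.15 (2.62 ± 0.18). Neither atypical receptor had overlapping groups. Cxcr4 (-2.30 ± 0.21) and the Cxcl12 scavenger Ackr3 (-1.14 ± 0.13) were lower together with Cxcl12 itself. Ackr4, a scavenger of CCL19 and CCL21, differed by -0.36 ± 0.11, and Ccr10 by 0.37 ± 0.12, both with overlapping groups.

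Lymphotoxin signals through NF-kB maintain high endothelium. Of 20 measured genes of the lymphotoxin receptor and NF-kB list 9 were higher and 1 lower (median 0.30), and 5 were higher and 0 lower without capillary arrays 1 and 2. The highest was Tnfrsf11a, the receptor RANK, at 1.29, 1.26, 1.67 and 1.57 in HEC against -0.20, -0.13 and -0.37 (1.68 ± 0.12). The signalling adaptor Traf1 (1.01 ± 0.19) and the inhibitor Nfkbie (0.85 ± 0.17), both themselves induced by NF-kB, were higher too. Within the alternative branch the kinase gene Map3k14 was higher by 0.44 and Relb by 0.42, while Nfkb2 was at 0.25 and did not pass. The lymphotoxin receptor Ltbr did not pass (-0.12 ± 0.08, adjusted p = 0.307), and Cd40 was lower (-0.38 ± 0.09). General leukocyte markers were higher in HEC on every array of that group (list means 0.60 to 1.07 against -0.27 to 0.22), and their part in these differences was not tested.

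Lipid mediators of lymphocyte migration were among the clearest differences. Of 5 measured genes of oxysterol ligand metabolism 4 were higher (median 1.55), and 3 both without capillary arrays 1 and 2 and without array 1 of both groups. Ch25h, which makes 25-hydroxycholesterol, was at 2.90, 2.46, 3.41 and 3.47 in HEC, against 0.03, 0.05 and -0.25 (3.11 ± 0.22), and all HEC arrays lay more than 2 log2 above all capillary arrays. Cyp27a1, another sterol hydroxylase, was higher by 2.09 ± 0.21 and Hsd3b7, which removes the ligand of GPR183, by 1.55 ± 0.17. Cyp7b1, which completes that ligand, did not pass (0.34 ± 0.17, adjusted p = 0.15), and the receptor gene Gpr183, which lymphocytes also express, was higher by 0.42 ± 0.13. Of 13 genes of sphingosine phosphate and lysophosphatidic acid 1 was higher and 5 lower, against 3 lower without capillary arrays 1 and 2 and 2 higher without array 1 of both groups. The kinase Sphk1, which makes sphingosine phosphate, was at 1.54, 1.52, 1.83 and 1.79 against -0.22, 0.05 and -0.18 (1.79 ± 0.11). The lipid phosphatases Plpp1 (-2.64 ± 0.20) and Plpp3 (-1.72 ± 0.13), which break such lipids down, and the receptors S1pr3 (-1.59 ± 0.16) and Lpar6 (-1.0 ± 0.19) were lower. Autotaxin (Enpp2) was not analysed here.

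Genes of the secretory pathway were higher in HEC as a broad group. Of 44 measured 34 were higher (77.3%) and 0 lower, with a median of 0.71, and 25 were higher without capillary arrays 1 and 2. The mean over the 44 genes was 0.40 to 0.55 in HEC arrays, against -0.36 to -0.12 in capillary arrays. Kdelr3, which returns escaped proteins to the endoplasmic reticulum, was at 1.68, 1.69, 1.76 and 2.14 in HEC against -0.06, -0.03 and -0.80 (2.12 ± 0.22). The cargo receptor Tmed3 was higher by 1.86 ± 0.13, the translocon subunit Ssr4 by 1.49 ± 0.18 and the signal peptidase subunit Sec11c by 1.45 ± 0.24. The stress sensor Ern1 (1.40) and its target transcription factor Xbp1 (1.02), named here for their role after their values were seen, were higher. Chaperones of the lumen divided. The HSP70-like Hyou1 (1.17) and the co-chaperone Sdf2l1 (0.91) were higher. Hspa5, the main chaperone, was at 0.18, 0.10, 0.30 and 0.20 in HEC, against 0.16, -0.17 and 0.00 (0.20 ± 0.13, adjusted p = 0.274). Hsp90b1 (0.40 ± 0.17), Calr (0.39 ± 0.14) and Canx (0.36 ± 0.13) did not pass either.

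The endoplasmic reticulum stress response element, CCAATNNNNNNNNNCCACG on either strand, was searched in the 250 bases before and 50 after each start in RefSeq promoters of assembly GRCm38.p6. It was found in 37 of 27025 genes (0.137%) and in 7 of the 35 secretory genes with a promoter in the table. The windows of these 7 genes are printed 5′ to 3′ on the strand of the gene, with the element in capitals, because 5 of them did not pass.
Hspa5 (chr2:34772013-34772055, + strand): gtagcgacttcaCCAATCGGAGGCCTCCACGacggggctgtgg
Hsp90b1, far copy (chr10:86705626-86705668, - strand): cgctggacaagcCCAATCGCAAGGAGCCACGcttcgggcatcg
Hsp90b1, near copy (chr10:86705521-86705563, - strand): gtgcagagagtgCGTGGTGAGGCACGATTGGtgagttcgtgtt
Calr (chr8:84847063-84847105, - strand): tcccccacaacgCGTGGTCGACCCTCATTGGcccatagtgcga
Canx (chr11:50325788-50325830, - strand): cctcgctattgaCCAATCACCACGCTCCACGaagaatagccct
Creld2 (chr15:88819508-88819550, + strand): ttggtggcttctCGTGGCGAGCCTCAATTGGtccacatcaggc
Dnajc3 (chr14:118937815-118937857, + strand): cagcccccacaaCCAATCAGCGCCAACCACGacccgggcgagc
Pdia6 (chr12:17266479-17266521, + strand): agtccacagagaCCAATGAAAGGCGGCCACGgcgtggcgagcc

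All 8 copies lie upstream of the start, from 212 to 47 bases before it. The co-chaperone Dnajc3 (0.54) and the disulfide isomerase Pdia6 (0.91) were higher, and Creld2 (0.38 ± 0.15) was with the 4 chaperones that did not pass. The 7 genes with the element had a median difference of 0.39 (0.20 to 0.91), and 2 were higher. The 28 secretory genes without it in this window had a median of 0.83 (0.16 to 2.12), and 23 were higher. The match is a description of the letters, and the split was noticed after the values were seen. Other elements were searched in the same way for other lists. A sterol element was in 0 lipid synthesis genes, and an RBPJ element in 1 called arterial and Notch gene. An NF-kB element was in 0 called members of the adhesion, chemokine and NF-kB lists. It was in 2 uncalled chemokines and 2 uncalled NF-kB genes. A cyclic AMP element was in 2 called immediate-early genes.

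Genes of amino acid supply, ribosome assembly and glycolysis moved less widely. Of 28 measured genes of amino acid supply and tRNA charging 11 were higher and 3 lower (median 0.29), and 7 and 1 without capillary arrays 1 and 2. Asparagine synthetase (Asns) was higher by 1.57 ± 0.25, the glutamine transporter Slc1a5 by 1.39 ± 0.11 and the glutamyl-prolyl-tRNA synthetase Eprs by 0.92 ± 0.16. Slc38a2 (-0.63 ± 0.14), Slc7a5 (-0.60 ± 0.15) and the stress-induced factor Ddit3 (-0.51 ± 0.13) were lower. Of 22 genes of ribosome assembly 14 were higher and 0 lower (median 0.46), none by 2-fold, with Dkc1 (0.84 ± 0.23), the RNA polymerase I subunit Polr1a (0.83 ± 0.13), Nop58 (0.76 ± 0.22) and Wdr12 (0.73 ± 0.18) at the top. This count fell to 5 without capillary arrays 1 and 2, where the median was 0.42. Among 13 genes of glycolysis 6 were higher and 0 lower, and 3 without those arrays. The glucose transporter Slc2a1 was at 0.93, 1.29, 1.26 and 1.17 in HEC against 0.00, -0.29 and -0.73 (1.50 ± 0.18), and Pfkfb3, which drives the pathway, was higher by 0.77 ± 0.18.

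The synthesis of sterols and fatty acids was represented by 28 measured genes, with 17 higher in HEC and 2 lower (median 0.68). The lower count was 1 both without capillary arrays 1 and 2 and without array 1 of both groups. The desaturase Fads2 was at 1.95, 1.67, 1.78 and 1.68 in HEC arrays, against -1.21, -0.75 and -1.54 in capillary arrays (2.94 ± 0.16). The elongase Elovl6 (2.28 ± 0.19), squalene epoxidase Sqle (1.99 ± 0.17) and the sterol desaturase Sc5d (1.92 ± 0.16) separated the groups as fully. Scd2 (-0.48 ± 0.11) and Srebf1, a transcription factor of the fatty acid branch (-0.42 ± 0.11), were lower, while its sterol-branch relative Srebf2 was higher by 0.62. Genes of fatty acid uptake ran the other way, as described with the capillary genes.

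Secreted protease inhibitors and complement made the third highest median of the 44 lists. Of 13 measured 9 were higher and 2 lower (median 1.19). Serpina3n was at 2.30, 4.57, 4.79 and 4.18 in HEC against -0.99, 0.00 and -0.61, with HEC array 1 below the other 3, and its difference was 4.82 without array 1 of both groups. Serpina1c, an antitrypsin gene, was even at 3.84, 3.92, 4.02 and 3.94 against 0.26, 0.41 and -0.37. Complement protease C1s1 was higher by 3.08 ± 0.32 and factor B (Cfb) by 2.96 ± 0.14, with 2.65 to 2.91 in HEC against -0.52 to 0.25. The C1 inhibitor Serping1 was lower (-1.69 ± 0.28), as was Itih5 (-2.0 ± 0.16), whose relative Itih3 was among the highest genes.

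Clotting genes were mixed, with 4 of 13 higher and 5 lower, and 3 lower both without capillary arrays 1 and 2 and without array 1 of both groups. F8, which endothelial cells supply to plasma, was at 4.81, 4.65, 4.92 and 4.17 in HEC against 1.61, 1.32 and 0.22. The tissue factor pathway inhibitors Tfpi (0.90 ± 0.25) and Tfpi2 (0.80 ± 0.21) and the protein C receptor Procr (0.37 ± 0.12) were higher. Thrombomodulin (Thbd), the partner of that receptor, was at -1.85, -1.41, -1.43 and -1.50 in HEC against 0.37, 0.32 and 0.20 (-1.84 ± 0.15). The plasminogen activators Plau (-1.17 ± 0.16) and Plat (-0.72 ± 0.21) and the thrombin receptor F2rl3 (-1.17 ± 0.16) were lower. The von Willebrand factor gene Vwf, stored by venous endothelium, was at 0.52, 1.59, 1.48 and 1.28 in HEC against -0.32, 0.22 and -0.05 (1.27 ± 0.22), again lowest in HEC array 1.

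Vascular tone was covered by 15 genes, 10 of them lower in HEC and 3 higher (median -0.70). Prostaglandin synthase Ptgs2 was the exception in size, at 1.27, 1.46, 2.29 and 1.63 in HEC against -1.89, -1.25 and -2.27 (3.47 ± 0.28). The natriuretic peptide receptor Npr1 (0.97 ± 0.14) and angiotensin converting enzyme Ace (0.50 ± 0.09) were also higher. Besides Ednrb, the lower genes were the clearance receptor Npr3 (-2.32 ± 0.16), the nitric oxide receptor subunit Gucy1a1 (-1.63 ± 0.15) and Ddah2, which protects nitric oxide synthesis (-1.60 ± 0.11). Nos3, the endothelial nitric oxide synthase, was lower too (-1.45). Markers of pericytes and smooth muscle, cells that also hold nitric oxide receptors, had lower list means in HEC arrays (-0.71 to -0.67 against 0.35 to 0.94), and their part in these values was not tested.

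Arterial and Notch genes formed the most uniform list on the capillary side. Of 21 measured 0 were higher and 19 lower (90.5%), with a median of -1.20, and 15 were lower without capillary arrays 1 and 2. The Notch target Hey1 was at -1.52, -1.26, -1.51 and -1.12 in HEC, against 2.32, 2.33 and 1.99 in capillary arrays (-3.57 ± 0.18). The arterial ligand Efnb2 was at -0.21, -0.28, 0.07 and -0.04, against 3.32, 2.98 and 3.20 (-3.28 ± 0.12). Sema3g (-3.42 ± 0.15) and the Notch ligand Jag2 (-2.91 ± 0.11) differed by nearly as much, and the ligand Dll4 by -1.11 ± 0.11. The groups did not overlap for any of these 5 genes. Jag1 (-0.32) and Dll1 (0.21) did not pass.

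Venous genes were higher for 5 of 7 measured (median 1.27) and lower for 2, with 1 lower both without capillary arrays 1 and 2 and without array 1 of both groups. The vein-fate factor Nr2f2 was at 0.43, 0.71, 0.81 and 0.99 in HEC against -0.62, -0.40 and -0.78 (1.33 ± 0.14), and the glycoprotein Lrg1 at 3.42 to 3.62 against 1.59 to 1.85 (1.81 ± 0.13). Besides Ackr1 and Vwf, the receptor Nrp2 was higher (0.34 ± 0.08). Members usually listed as venous were lower, namely Ephb4, the receptor of Efnb2 (-0.32 ± 0.09), and Aplnr, which was at -0.96, -0.89, -0.69 and -1.0 in HEC against 3.11, 2.75 and 2.83. Ephb4 differed by -0.18 without array 1 of both groups and no longer passed (adjusted p = 0.202).

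Angiogenesis was covered by 21 genes, 14 of them lower in HEC and 2 higher (median -1.09), and 1 was higher both without capillary arrays 1 and 2 and without array 1 of both groups. The receptors Kdr (-0.95 ± 0.12), Flt1 (-1.31 ± 0.11) and Flt4 (-1.24 ± 0.13) of the VEGF family, their co-receptor Nrp1 (-2.17 ± 0.10) and the angiopoietin receptor Tek (-1.14 ± 0.17) were lower. The adrenomedullin co-receptor Ramp3 (-3.09 ± 0.21), the tip cell gene Esm1 (-3.05 ± 0.17) and Pdgfb, which recruits pericytes (-1.71 ± 0.11), were lower as well. Angpt2, which opposes Tek signalling in remodelling vessels, was at 1.89, 1.95, 1.98 and 1.59 in HEC against 0.54, 0.49 and -0.06 (1.53 ± 0.22), and Vegfa was higher by 0.33 ± 0.10. Vegfa did not pass without capillary arrays 1 and 2 or without array 1 of both groups (adjusted p = 0.11 and 0.109).

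**Figure D4:**
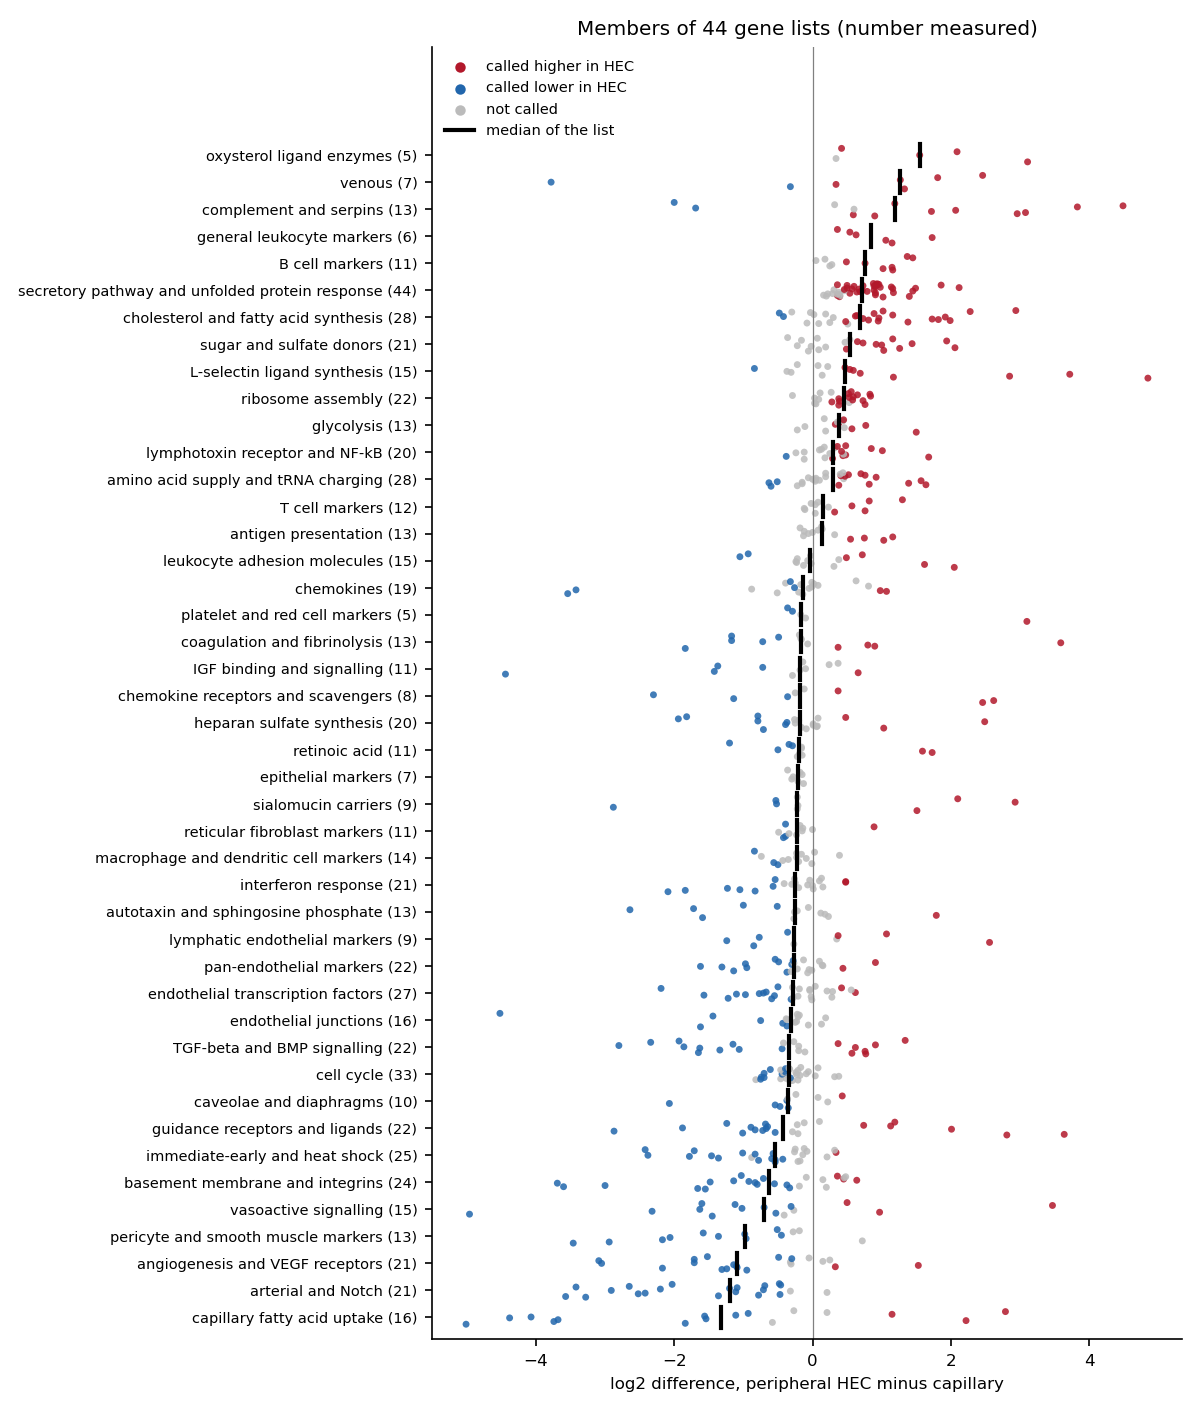
Log2 difference of peripheral HEC minus capillary cells (horizontal axis) for every measured member of 44 gene lists (rows, number measured in brackets), coloured by the call, with a bar at each list's median. Oxysterol enzymes, venous genes and complement and serpins have the highest medians (1.55, 1.27 and 1.19), and capillary fatty acid uptake and arterial and Notch genes the lowest (-1.32 and -1.20).

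Capillaries of many organs take up fatty acids from lipoproteins. Of 16 measured genes of this list 10 were lower and 3 higher (median -1.32). Gpihbp1, which holds lipoprotein lipase on the capillary wall, was at -0.39, 0.39, 0.14 and -0.01 in HEC against 3.57, 3.69 and 4.05 (-3.74 ± 0.17), and the glycerol channel Aqp7 at -0.03 to 0.22 against 3.40 to 4.00 (-3.68 ± 0.20). Car4, Rbp7 and Cd36 completed the 5 lowest. The lipase itself, Lpl, ran the other way with 0.22, 3.24, 3.56 and 3.15 in HEC arrays against 0.39, 0.59 and 0.00 (2.22 ± 0.53, adjusted p = 0.00545). The metalloproteinase inhibitor Timp4 had the same shape, at 1.39, 4.94, 4.74 and 4.83 against 1.40, 1.37 and 0.78 (2.79 ± 0.61). For both genes HEC array 1 lay among the capillary arrays and the other 3 HEC arrays far above them, and without array 1 of both groups the differences were 3.02 for Lpl and 3.76 for Timp4. Lpl did not pass without capillary arrays 1 and 2 (adjusted p = 0.0542). The homeobox gene Meox2 was higher in all HEC arrays, at 0.96 to 1.24 against -0.36 to 0.36 (1.15 ± 0.21).

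In the list of basement membrane and integrins, 15 of 24 members stood lower in HEC and 3 higher (median -0.63). Nidogen 2 (Nid2) was at -1.88, -1.91, -1.82 and -1.91 in HEC against 1.75, 1.72 and 1.96 (-3.69 ± 0.10). The laminin chains Lama4 (-3.60 ± 0.17) and Lamb1 (-3.0 ± 0.23) and the collagen IV chain Col4a2 (-1.66 ± 0.17) were lower. The integrin subunits Itga2 (0.64 ± 0.17), Itga5 (0.45 ± 0.10) and Itgb4 (0.36 ± 0.08) were higher. Pericytes also make basement membrane, and their markers had lower list means in HEC as given above. Among capillary arrays 1 to 3 the list means were 0.36, 0.94 and 0.35 for pericyte and smooth muscle markers. For basement membrane and integrins they were 0.77, 0.52 and 0.58. The part of pericyte RNA in these differences was not tested.

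Of 16 junction genes 0 were higher and 6 lower, and 3 were lower without capillary arrays 1 and 2. Claudin 5 (Cldn5), the main tight junction protein of small vessels, was at 0.72, 0.14, 0.59 and -0.05 in HEC against 2.07, 2.34 and 1.49 (-1.62 ± 0.30). Against capillary array 3 alone the Cldn5 difference was -1.14, and it is among the calls listed below as lost in that setting. The receptor phosphatase Ptprb (-1.44 ± 0.12) and Cgnl1 (-0.75 ± 0.12) were lower, as was VE-cadherin (Cdh5, -0.37 ± 0.08), which did not pass against capillary array 3 alone (-0.29, adjusted p = 0.125). Of 10 genes of caveolae and diaphragms 5 were lower and 1 higher, against 1 lower without capillary arrays 1 and 2 and 3 lower without array 1 of both groups. Cavin2, a coat protein of caveolae, was at -1.40, -0.90, -0.59 and -0.13 in HEC against 1.18, 1.34 and 1.42 (-2.07 ± 0.24). Cavin1 (-0.54 ± 0.10), Cav2 (-0.47 ± 0.15), the diaphragm protein Plvap (-0.37 ± 0.08) and Cav1 (-0.35 ± 0.10) were lower by less, and Pacsin2 was higher (0.43 ± 0.10).

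Of 27 endothelial transcription factors 12 were lower, 2 higher and 13 did not pass. Without capillary arrays 1 and 2 the counts were 8 lower and 0 higher, and 1 was higher without array 1 of both groups. Prdm1, a repressor best known from lymphocytes, was at -0.84, -0.24, 0.54 and -0.21 in HEC against 2.14, 2.17 and 1.68 (-2.19 ± 0.22). Sox7 (-1.57 ± 0.12), Ets2 (-1.22 ± 0.11), the flow-induced factor Klf2 (-1.10 ± 0.18) and Sox18 (-0.97 ± 0.16) were lower. Foxc1 (0.62 ± 0.19) and Meox1 (0.42 ± 0.14) were higher, and neither passed without capillary arrays 1 and 2. The homeobox gene Nkx2-3, needed for mucosal addressin in mice, did not pass (-0.19 ± 0.17, adjusted p = 0.445).

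Of 22 genes of TGF-beta and BMP signalling 7 were higher and 10 lower. The lowest was the ligand Tgfb2, at -2.08, -2.25, -2.22 and -2.42 in HEC against 0.61, 0.59 and 0.49 (-2.80 ± 0.13), followed by the activin subunit Inhbb (-2.34 ± 0.21), the latent form binder Ltbp4 (-1.93 ± 0.12) and the target Id3 (-1.86 ± 0.17). The highest were Tgfbi (1.34 ± 0.17), the receptor Tgfbr1 (0.91 ± 0.20), the ligand Bmp2 (0.77 ± 0.23) and the mediator Smad1 (0.76 ± 0.14). The type II receptor Tgfbr2 was lower (-1.15), so the 2 chains of that receptor differed in opposite directions.

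Of 11 genes of IGF binding and signalling 4 were lower and 1 higher, and 3 were higher without array 1 of both groups. Igfbp3 was at -3.01, -3.16, -2.71 and -3.05 in HEC against 1.41, 1.41 and 1.57, Igfbp5 was lower by -1.42 ± 0.22 and Igf2 by -1.37 ± 0.14, and Igfbp4 was higher (0.66 ± 0.13) but did not pass without capillary arrays 1 and 2 (adjusted p = 0.077). Of 22 guidance genes 6 were higher and 11 lower, and 7 lower without capillary arrays 1 and 2. Robo2 was at 3.78, 3.45, 3.91 and 3.59 in HEC against 0.25, 0.10 and -0.23, and Robo1 at 2.64 to 2.95 against -0.14 to 0.22 (2.81 ± 0.11). Robo1 and Robo2, which are Slit receptors, were thus higher, while Slit3, the gene of a Slit ligand, was lower (-1.01 ± 0.13). Sema5a (2.01 ± 0.13) and the netrin receptor Unc5c (1.19 ± 0.10) were higher, and Sema3c (-2.87 ± 0.14), Sema6d (-1.88 ± 0.16) and Efna1 (-1.24 ± 0.18) lower.

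Heparan sulfate on the vessel wall binds chemokines. Of 20 genes of its synthesis 3 were higher and 7 lower, against 4 lower without array 1 of both groups. The enzymes that remove its 6-O-sulfates differed in opposite directions. Sulf1 was at 1.72, 1.57, 1.95 and 1.56 in HEC against -0.50, -0.84 and -1.03 (2.49 ± 0.16), and Sulf2 at -0.29, -0.35, -0.38 and -0.45 against 0.26, 0.50 and 0.50 (-0.79 ± 0.10). Extl2 (1.03 ± 0.19) and the core protein Gpc1 (0.48 ± 0.10) were higher, and the core proteins Sdc3 (-1.94 ± 0.16), Gpc4 (-1.82 ± 0.13) and Gpc6 (-0.79 ± 0.10) lower. Of 11 genes of retinoic acid 2 were higher, both of uptake or first oxidation, with the retinol receptor Stra6 at 0.93 to 1.36 in HEC against -0.97 to -0.25 (1.73 ± 0.16) and the dehydrogenase Rdh10 higher by 1.59 ± 0.21. The receptors Rarg (-1.20 ± 0.11), Rarb (-0.34 ± 0.10) and Rara (-0.29 ± 0.08) and the reverse enzyme Dhrs3 (-0.50 ± 0.10) were lower, and 2 of these 4 calls were lost without capillary arrays 1 and 2 (Rarb, adjusted p = 0.514, and Rara, adjusted p = 0.122). The enzymes that complete retinoic acid, Aldh1a1 (-0.22 ± 0.11), Aldh1a2 (-0.15 ± 0.11) and Aldh1a3 (-0.19 ± 0.09), did not pass.

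Genes that respond within minutes to handling or flow numbered 25, of which 14 stood lower in HEC and 1 higher, or 0 higher without capillary arrays 1 and 2 or without array 1 of both groups (median -0.54). Hspa1a, whose probe set may also bind its near-identical copy, was at -3.10, -2.20, -2.0 and -2.22 in HEC against -0.41, 0.43 and 0.08 (-2.42 ± 0.22). Nr4a3 (-2.38 ± 0.20), Nr4a1 (-1.78 ± 0.11) and Rhob (-1.71 ± 0.28) were lower, and Klf6 was higher by 0.34 ± 0.11, which did not pass without capillary arrays 1 and 2 (adjusted p = 0.108). Fos (-0.54) and Egr1 (-0.43) were lower, and Jun (-0.18) and Atf3 (-0.14) did not pass. The interferon list had 7 of 21 members lower and 2 higher (median -0.25), and 1 was higher without capillary arrays 1 and 2, with Rsad2 (-2.09 ± 0.19), Ifit2 (-1.84 ± 0.25), Irf7 (-1.23 ± 0.14) and Ifit3 (-1.05 ± 0.26) lower and the RNA sensors Ddx58 and Dhx58 higher by 0.48 each. Cxcl10 and Cxcl11, which interferon also induces, were higher as given above.

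The cell cycle list had 10 of 33 members lower and 0 higher (median -0.34), none by 2-fold. The list mean was -0.33 to 0.05 in HEC arrays against 0.15 to 0.47 in capillary arrays, where array 1 was the highest. Ccnb2 (-0.75 ± 0.19), Plk1 (-0.74 ± 0.20), Rrm2 (-0.70 ± 0.16) and Aurkb (-0.70 ± 0.16) led the list. The count was 1 without capillary arrays 1 and 2 and 6 without array 1 of both groups. Of 13 genes of antigen presentation 4 were higher and 0 lower, all of MHC class II. The invariant chain Cd74 was at 1.77, 1.27, 1.52 and 1.30 in HEC against 0.55, 0.38 and 0.00 (1.16 ± 0.21), and H2-Aa (1.03 ± 0.13), H2-Eb1 (0.75 ± 0.11) and H2-Ab1 (0.55 ± 0.16) were higher with it. Ciita, the activator of these genes, was at -0.13 and did not pass, and genes of class I presentation such as B2m (-0.06) and Tap1 (0.00) did not pass.

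Markers of other cells moved with the comparison on both sides, and no defining marker can be said to be near 0 because levels are unknown. Of 11 B cell markers 7 stood higher in HEC, with list means of 0.59 to 0.81 in HEC arrays against -0.10 to 0.12 in capillary arrays. They included the antigen receptor components Cd79a (1.16 ± 0.21) and Cd79b (1.02 ± 0.19), Ms4a1 (1.15 ± 0.17) and Fcer2a (1.45 ± 0.17), while Pax5 (0.28 ± 0.12), Cd22 (0.25 ± 0.11), Cr2 (0.18 ± 0.08) and Blk (0.05 ± 0.09) did not pass. Of 12 T cell markers 5 stood higher, and 3 without capillary arrays 1 and 2 (list means 0.42 to 0.49 against 0.08 to 0.23), led by Ccr7 at 1.52, 1.44, 1.46 and 1.78 against 0.09, 0.75 and -0.09 (1.30 ± 0.15), whereas Cd3d (0.04 ± 0.11) and Cd4 (-0.11 ± 0.18) did not pass. All 6 general leukocyte markers were higher, among them Cd53 (1.73 ± 0.18) and Ptprc (1.15 ± 0.19), and 4 of them without array 1 of both groups. The class II genes above are also made by B cells, and the part of leukocyte RNA in them was not tested.

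On the capillary side, 10 of 13 markers of pericytes and smooth muscle stood lower in HEC and 0 higher, with 1 higher without array 1 of both groups. Rgs5 was at -2.16, -2.57, -2.40 and -2.36 in HEC against 0.86, 1.87 and 0.52 (-3.46 ± 0.23), and Acta2 (-2.94 ± 0.22), Myh11 (-2.17 ± 0.15) and Pdgfrb (-2.06 ± 0.23) were lower. Capillary array 2 was the highest for Rgs5, Pdgfrb (0.79, 1.67 and 0.51 in capillary arrays 1 to 3) and Igfbp5 (0.41, 1.69 and 0.66). Lymphatic markers were split, with 3 of 9 higher and 4 lower, and 1 lower without capillary arrays 1 and 2. Lyve1 was at 1.67, 3.41, 3.23 and 3.60 in HEC against 0.46, 1.10 and -0.33 (2.56 ± 0.36) and Stab2 was higher by 1.07 ± 0.15, while the fate factor Prox1 was at 0.00, 0.10, 0.35 and 0.07 against 0.93, 1.48 and 0.53 (-0.85 ± 0.22). Prox1 and Mmrn1 (0.83, 1.96 and 0.24) were likewise highest in capillary array 2, and against array 3 alone Prox1 did not pass (-0.40, adjusted p = 0.382). Macrophage and dendritic cell markers were lower for 3 of 14 (1 without capillary arrays 1 and 2) and higher for 0 (1 without array 1 of both groups), reticular fibroblast markers lower for 3 (0 without those arrays and 1 without array 1 of both groups) and higher for 1 of 11, and epithelial markers differed for 0 of 7 by limma. Of 5 platelet and red cell markers Pf4 was higher (3.10 ± 0.21), while Ppbp (-0.29 ± 0.10) and Alas2 (-0.36 ± 0.12) were lower, neither of which passed without capillary arrays 1 and 2 or without array 1 of both groups, and Itga2b (-0.10 ± 0.09) and Gp9 (-0.17 ± 0.11) did not pass. The pan-endothelial list had 10 of 22 members lower and 2 higher, against 4 and 1 without capillary arrays 1 and 2 and 6 and 1 without array 1 of both groups, with Clec14a (0.91 ± 0.18) and Egfl7 (0.44 ± 0.12) on the higher side.

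MicroRNA genes were sampled by 298 probe-set genes, of which 5 were higher and 37 lower, with a median of -0.08. The 4 that differed by at least 2-fold, picked by that threshold after the values were seen, are shown with the mature sequences RefSeq lists for them (GRCm38.p6), 5′ to 3′ with the seed (bases 2 to 8) in capitals. The array reads the gene or its precursor, so which mature form was present is not known.
mmu-miR-126a-3p (chr2:26591402-26591423, + strand): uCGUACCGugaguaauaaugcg
mmu-miR-27a-5p (chr8:84208685-84208706, + strand): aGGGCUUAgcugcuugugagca
mmu-miR-27a-3p (chr8:84208727-84208747, + strand): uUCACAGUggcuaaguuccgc
mmu-miR-23a-5p (chr8:84208527-84208548, + strand): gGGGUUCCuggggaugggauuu
mmu-miR-23a-3p (chr8:84208563-84208583, + strand): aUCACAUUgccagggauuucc
mmu-miR-155-5p (chr16:84714143-84714165, + strand): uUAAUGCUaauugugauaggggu
mmu-miR-155-3p (chr16:84714182-84714202, + strand): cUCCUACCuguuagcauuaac

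No 2 of these 7 share a seed. Mir126a, the microRNA gene inside the endothelial gene Egfl7, was at -0.09, -0.10, -0.10 and 0.16 in HEC against 1.24, 1.03 and 1.09 (-1.15 ± 0.20). Its host Egfl7 differed by 0.44 ± 0.12, a call that was lost without capillary arrays 1 and 2 (adjusted p = 0.307) and without array 1 of both groups (adjusted p = 0.0549). The neighbours Mir27a (-1.10 ± 0.13) and Mir23a (-1.0 ± 0.12), which lie in 1 cluster on chromosome 8, were lower together. Mir155, a microRNA gene of activated lymphocytes and vessels, was at 0.42, 0.91, 1.27 and 1.39 in HEC against 0.32, 0.00 and -0.38 (1.02 ± 0.21).

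Whether the HEC difference of peripheral nodes departed from that of the other tissues was tested as an interaction. This was the peripheral difference minus the mean of the mesenteric and Peyer's patch differences. For the mesenteric difference, the means of the MAdCAM1+/PNAd+ and MAdCAM1+ HEC arrays were averaged before the capillary mean was subtracted. By limma 404 genes passed (2.03%), 229 with a more positive and 175 with a more negative difference in peripheral nodes. Of the 404, 398 had the same sign against each tissue alone. A shared sign was likely in advance, because the interaction is the mean of the 2 single-tissue comparisons. It does not show a departure from both tissues. The counts rest on a few arrays, as 147 passed without peripheral capillary arrays 1 and 2, 269 without peripheral capillary array 2 and 854 without Peyer's patch HEC array 3. The 16 genes with the largest interactions, named first, passed under all settings that were run.

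Among these, 8 had a more positive difference in peripheral nodes. Pdlim3, a cytoskeletal adaptor, was at 1.78, 1.03, 1.19 and 1.72 in peripheral HEC against -0.47, 0.00 and -0.60 in capillary cells (1.79 ± 0.18), while the mesenteric difference was -0.63 and the Peyer's patch one -2.0, an interaction of 3.10 ± 0.22. The flavin monooxygenase Fmo2 (0.84 against -1.07 and -2.24), the amino acid exchanger Slc7a6 (1.64 against -0.65 and -0.66) and the muscarinic receptor Chrm3 (1.89 against 0.29 and -0.95) followed. Cldn13 (3.56 against 1.64 and 0.79), Pf4 (3.10 against 1.39 and 0.52) and F8 (3.59 against 1.33 and 1.73) had positive differences in all 3 tissues and the largest in peripheral nodes. The secretoglobin Scgb3a1 had the largest positive interaction, 3.51 ± 0.41. It did not pass in peripheral nodes (-0.89 ± 0.32, adjusted p = 0.0554), against -3.69 for the mesenteric and -5.11 for the Peyer's patch difference.

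The other 8 had a more negative difference in peripheral nodes. Glycam1 had an interaction of -4.35 ± 0.59, from a peripheral difference of 1.51 against 5.27 (mesenteric) and 6.45 (Peyer's patch), and without peripheral capillary arrays 1 and 2 the interaction was -2.64. Madcam1 (2.93 against 6.23 and 5.68) was a gating antigen of mesenteric HEC, so its mesenteric difference restates the sort. Aplnr (-3.78 against -2.23 and 0.04), Gucy1a1 (-1.63 against -0.21 and 1.80), the lectin Lgals1 (-0.88 against 0.72 and 1.58) and Lrrc55 (-1.90 against 0.20 and 0.07) were lower in peripheral HEC and had a more negative difference there than in either other tissue. Fjx1 (0.08 ± 0.15 against 1.63 and 3.77) and the interferon-gamma-induced chemokine Cxcl9 (-0.20 ± 0.16 against 0.75 and 2.59) did not pass in peripheral nodes.

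**Figure D5:**
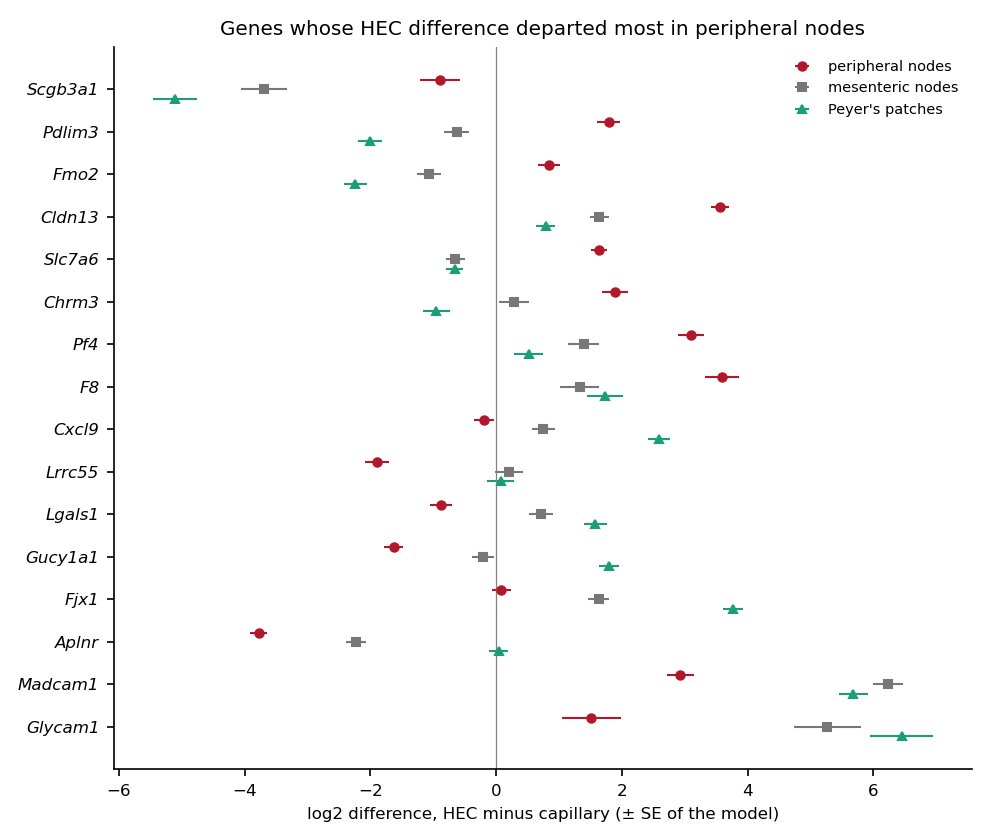
Log2 difference of HEC minus capillary cells (horizontal axis, ± SE of the model) in peripheral nodes (red circles), mesenteric nodes (grey squares) and Peyer's patches (green triangles) for the 16 genes with the largest interactions. For the upper 8 genes the peripheral difference lies to the right of the other 2, from Scgb3a1 (-0.89 against -3.69 and -5.11) to F8, and for the lower 8 it lies to the left.

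Among the lists, venous genes had 4 of 7 members with a more negative interaction, namely Aplnr, Lrg1 (-1.53 ± 0.17), Nr2f2 (-0.95 ± 0.18) and Ackr1 (-0.91 ± 0.23). Of these, Nr2f2 and Ackr1 did not pass without peripheral capillary arrays 1 and 2 (adjusted p = 0.222 and 0.262). Arterial and Notch genes had 5 of 21 members more positive and 1 more negative, and cell cycle genes 5 of 33 more negative and 0 more positive. Efnb2, Rrm2, Ccnb2 and Aurkb are among these, and their interactions are listed below as passing only with peripheral capillary arrays 1 and 2. Without those arrays they were 0.64 (Efnb2, from 0.67), -0.81 (Rrm2, from -1.14), -0.95 (Ccnb2, from -1.04) and -0.76 (Aurkb, from -0.93). Single members of other lists departed strongly. The retinal reductase Dhrs3 was at -0.50 in peripheral HEC against -2.31 (mesenteric) and -2.58 (Peyer's patch; interaction 1.95 ± 0.13), and the retinol receptor Stra6 was higher by 1.73 against 3.26 and 3.50 (-1.65 ± 0.20). Sulf1 was higher by 2.49 in peripheral HEC against 1.26 and 0.57 (1.58 ± 0.20). The binding protein Igfbp4 was at 0.66 against -0.18 and -1.57 (1.53 ± 0.16), and Ace at 0.50 against -0.04 and -1.41 (1.23 ± 0.11). Sema3c was lower in peripheral HEC at -2.87 against -2.78 (mesenteric) and 0.06 (Peyer's patch; interaction -1.51 ± 0.18), so its departure lies against Peyer's patches. For Chst4 the interaction of 1.28 ± 0.43 did not pass (adjusted p = 0.169), whereas without peripheral capillary arrays 1 and 2 it was 2.63 and passed (adjusted p = 2.52e-05). It came from a peripheral difference of 4.85 against 5.0 (mesenteric) and 2.14 (Peyer's patch).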

How the data were processed

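Sorted endothelial cells were measured on Affymetrix arrays, with RNA extracted by Qiagen RNeasy Plus Micro and amplified with the Ambion WT Expression Kit, per the labels' protocols. The deposited values are log2 signals made by the authors with RMA in Partek, per the submitters' processing notes, in which no versions are given. The values run below 0 and are centred per probe set on an unstated baseline, so only differences between arrays were used. Of 28856 probe sets, 21789 carried 1 gene symbol, 1621 several and 5446 none, and probe sets of a gene were averaged to 19938 genes. A model with 7 group means over all 19 arrays was fitted with limma 3.58.1 in R 4.3.3, with Benjamini-Hochberg adjustment over all genes and a threshold of 0.05. Data were simulated over 19938 genes with independent normal noise of each gene's fitted spread. In peripheral HEC 100 genes were changed by 1 log2 and 100 by 2. The model recovered 97% of the former and 100% of the latter, with 11 unchanged genes called. The simulation held no effect shared by the genes of an array and far fewer changed genes than were called here. Its rates therefore need not hold for these arrays. The number of arrays limits the precision.

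The members and gene lists were chosen with earlier results of these data known. Named genes were the 15 highest and 15 lowest called genes with at least 2-fold differences and no overlap, the 8 highest and 8 lowest interactions, up to 4 called members at each end of a list, every member of lists of 12 or fewer, and a set of fixed genes. The first 2 groups excluded predicted genes, chemosensory receptors, antigen receptor segments and small RNAs. Genes named beyond that rule were added for their role after their values were seen: Uty, Eif2s3y, Kdm5d, Xist, Gja4, St3gal4, St3gal6, C1galt1, Papss1, Papss2, Ccl19, Cxcl13, Map3k14, Relb, Nfkb2, Ern1, Xbp1, Hyou1, Sdf2l1, Dnajc3, Pdia6, Srebf2, Nos3, Jag1, Dll1, Tgfbr2, Fos, Egr1, Jun, Atf3, Ciita, B2m and Tap1. Same-numbered HEC and capillary arrays had residual correlations of 0.084, 0.376 and -0.196, and arrays of unlike number -0.422 to 0.235. These values cannot tell whether arrays of the same number share mice or a sort. Array 1 of both groups was low for Uty and Eif2s3y. The labels do not tie the numbers, and the main model did not take them as pairs. A fit with the number as a block is given below.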

Additional observations from a re-analysis of the deposited data

Results flagged for a closer look

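In 15 of 294 genes of the text 1 HEC array lay apart from the other 3, with a gap to its nearest neighbour above Dixon's critical share of the group's range. Xist is not among the 294. For independent groups with normal scatter the rule flags about 1 in 20. The genes of the text were picked and are not independent, so the share found is no measure of chance. Among the 140 genes with a range of at least 1 log2, HEC array 1 stood alone in 12, array 4 in 10 and array 3 in 3. HEC array 1 stood apart for Aldh1a1 (0.924), Eif2s3y (0.891), Ern1 (0.900), Fmo2 (0.865), Lpl (0.876), Ptprb (0.865), Timp4 (0.945) and Uty (0.937). HEC array 2 stood apart for Ms4a1 (0.896). HEC array 3 stood apart for Plpp3 (0.851). HEC array 4 stood apart for Cxcl11 (0.854), Itih5 (0.867), Mir126a (0.962), Oit1 (0.895) and Slit3 (0.944). 

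The HEC difference of peripheral nodes departed from the mean of the other 2 tissues, by the limma interaction, in 53 of these 294 genes. Interactions that were more positive with and without peripheral capillary arrays 1 and 2 (log2) were those of Ace (1.23), Chrm3 (2.22), Cldn13 (2.35), Dhrs3 (1.95), F8 (2.05), Fads2 (1.09), Fcer2a (0.95), Fmo2 (2.50), Igfbp4 (1.53), Pdlim3 (3.10), Pf4 (2.14), Plat (1.80), Scgb3a1 (3.51), Slc7a6 (2.29), Sulf1 (1.58) and Unc5c (0.66). Interactions that were more negative with and without peripheral capillary arrays 1 and 2 (log2) were those of Aplnr (-2.69), Btnl9 (-1.48), Cxcl9 (-1.87), Fjx1 (-2.62), Glycam1 (-4.35), Gucy1a1 (-2.43), Lgals1 (-2.03), Lrg1 (-1.53), Lrrc55 (-2.03), Madcam1 (-3.02), Nid2 (-0.73), Scd2 (-1.07), Sema3c (-1.51), Stra6 (-1.65) and Sulf2 (-0.73). Interactions that were more positive only with those 2 arrays kept in (log2) were those of Ackr3 (0.94), Efnb2 (0.67), Emcn (0.74), H2-Aa (0.67), Map3k14 (0.51), Thbd (0.96) and Vegfa (0.48). Interactions that were more negative only with those 2 arrays kept in (log2) were those of Ackr1 (-0.91), Acta2 (-1.61), Aurkb (-0.93), Ccnb2 (-1.04), Ccr10 (-0.68), Cfb (-0.87), Cxcl10 (-0.74), Cyp27a1 (-1.20), Myh11 (-1.12), Nr2f2 (-0.95), Rrm2 (-1.14), S1pr3 (-0.92), St6gal1 (-0.81), Stab2 (-1.07) and Tgfbi (-1.15). 
The mesenteric gate used MAdCAM1, so the value of Madcam1 restates that sort in part.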

How the results depend on the processing

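The counts of at least 2-fold differences stayed within 1.5 times of the reported ones under all settings run. Without peripheral capillary arrays 1 and 2, which leaves a lone capillary array assumed to vary like the other groups, 2655 genes passed (1637 higher and 1018 lower), and the interaction passed in 147 (102 more positive and 45 more negative). With array weights, whose estimation did not converge, 3497 genes were lower and the interaction passed in 2140 (1031 and 1109). With the replicate number as a block the interaction passed in 203 (111 and 92) and 3586 genes differed between HEC and capillary cells. Leaving out each array in turn gave 1460 to 2846 lower genes, 269 to 854 interactions, 152 to 492 more positive and 117 to 362 more negative. Of 262 named genes that passed, 190 passed under every setting and 72 were lost under at least 1, and 0 changed sign. The Glycam1 difference was lost with the 7 arrays alone (adjusted p = 0.0711), after quantile normalisation (0.139), and without capillary array 3 (0.149), HEC array 1 (0.0525) or HEC array 3 (0.0558). Of the 254 genes that passed and are named in the results, 54 did not pass without capillary arrays 1 and 2: Ackr4, Alas2, Aurkb, C1galt1, Cav1, Cav2, Cavin1, Ccnb2, Ccr10, Cd300lg, Cd40, Cdh5, Cldn5, Cxcl11, Dhx58, Dkc1, Dnajc3, Egfl7, Egr1, Ephb4, Fos, Foxc1, Gpr183, H2-Ab1, Ifit3, Igfbp4, Klf6, Lpar6, Lpl, Map3k14, Meox1, Mmrn1, Nop58, Nrp2, Pfkfb3, Plat, Plk1, Plvap, Ppbp, Procr, Prox1, Rara, Rarb, Relb, Rrm2, Scd2, Sec11c, Slc38a2, Slc7a5, Smad1, St3gal4, St3gal6, Vegfa and Wdr12. Without array 1 of both groups 22 did not pass: Alas2, C1galt1, Cav1, Cav2, Ccnb2, Ccr10, Cd300lg, Egfl7, Egr1, Ephb4, Fos, Foxc1, Gpr183, H2-Ab1, Ifit3, Klf6, Mmrn1, Plat, Ppbp, Rara, Srebf1 and Vegfa. The causes were not tested.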
